A study of Mus musculus with 3 samples.

Results

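The Schlafen genes are a mouse gene family whose transcripts were followed here in chondrocytes, the cells that make cartilage. The members were taken by name from the deposited table, as Slfn1, Slfn2, Slfn3, Slfn4, Slfn5, Slfn8 and Slfn9, which gave 7 of its 44788 rows. Earlier results of the same comparison were known when the family was chosen, so the difference between genotypes is given for the members as a description, with no test.

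The cKO group (2 libraries) came from C57BL/6 knee-joint chondrocytes that carried Col2a1-CreERT2 and floxed Kdm6b alleles, written Col2a1-CreERT2;Kdm6bf/f. The control group (1 library) carried the floxed alleles alone, Kdm6bf/f. Cells of both genotypes were primary cultures in F12 medium with 10% serum, and both received 1 µM 4-hydroxytamoxifen for 48 h. The drug switches on CreERT2, a recombinase driven by the promoter of the cartilage collagen gene Col2a1. Because the control lacks CreERT2, loss of Kdm6b and the active recombinase itself cannot be told apart. The sources used here give no ages, numbers of animals or pooling. Ribosomal RNA was removed from extracts with an integrity number over 8, and an Ion Proton instrument sequenced the rest.

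Schlafen proteins share an amino-terminal core. In the mouse they fall into a short class (Slfn1, Slfn2), an intermediate class (Slfn3, Slfn4) and a long class (Slfn5, Slfn8, Slfn9, Slfn14), whose carboxy-terminal extension resembles a helicase. Many family members are switched on by type I interferon through a transcription factor complex that includes STAT2 and IRF9, and the family is best known in lymphocytes and myeloid cells. Human long-class proteins such as SLFN11 and SLFN13 cleave transfer RNA and restrict virus protein synthesis.

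The library totals lay between 12489738 and 12636471 counts. Kdm6b, a histone H3 lysine 27 demethylase and the targeted gene (chr11:69398508-69413675, minus strand, on GRCm38), was read at 1049 and 948 counts in cKO, against 1289 in the control. Its log2 fold change was -0.39 ± 0.14 (standard error), which missed the threshold (adjusted p = 0.138, edgeR quasi-likelihood test with Benjamini-Hochberg adjustment). Gene-level counts include exons outside the floxed stretch. The cKO libraries stand apart in sex-linked transcripts: Xist had 2 and 10081 counts in cKO replicates 1 and 2, against 1 in the control, and Ddx3y had 680 and 0, against 732. Counts and levels of each Schlafen gene are therefore given for each cKO library, beside folds over both. Among 11339 genes with a mean of at least 5 CPM, read counts scaled to the normalised library size, the log2 difference between the cKO libraries had an SD of 0.331.

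All 7 members lie on chromosome 11 in a single cluster, which spans 335.4 kb between the start of Slfn5 and the end of Slfn14 (GENCODE M21 on GRCm38). Together they held 2902 and 2626 counts in the cKO libraries, against 356 in the control. The summed level was 219 ± 19.7 CPM in cKO (SD, n = 2) and 28.7 CPM in the control. The summed fold was 7.63, with a 95% counting interval of 6.85 to 8.52. Such intervals cover counting error only, since each fold rests on 1 control library. A count was found for 6 members in at least 1 library and for 4 members in all 3 libraries, and 5 members passed the filter on low counts. All 3 members with a mean of at least 5 CPM (Slfn2, Slfn8 and Slfn9) were at least 2-fold higher in each cKO library, as were 1.61% of the 11339 genes at that level. Slfn2 and Slfn8 had 1.29 and 3.71 CPM in the control, so they reached that mean only through the cKO libraries. The family was also chosen on this comparison, so nothing is read from that share.

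**Figure D1:**
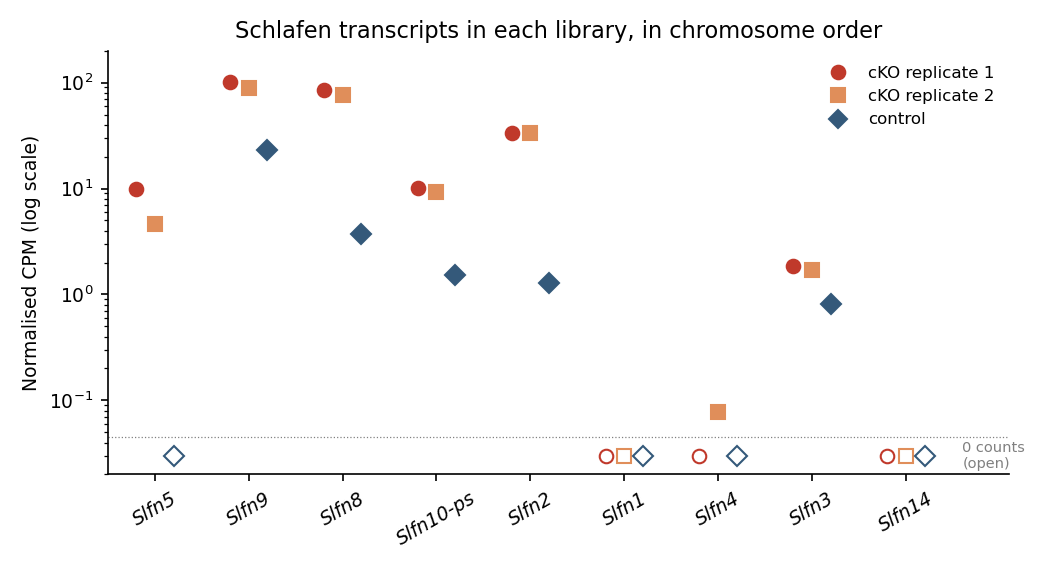
Normalised CPM (log scale) of the Schlafen genes in each library, in chromosome order, with open symbols for 0 counts. Slfn9, Slfn8 and Slfn2 lie highest in both cKO libraries, Slfn5 was at 0 in the control, and Slfn1 and Slfn14 were at 0 in all 3 libraries.

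The long-class members hold most of the family's counts. The stretches before the start sites of Slfn8, Slfn9 and Slfn5, together with that of the short-class member Slfn2, are printed. These 4 members had the largest folds over the control, given for Slfn5 as a bound. Slfn5 held only 4.20% and 2.25% of the member counts in cKO. The printed stretches are 170 bases each, written 5′ to 3′ on the gene's own strand and ending 1 base before the RefSeq start site (GRCm38.p6). The capitals mark a match to GAAA, any 2 bases, GAAA on either strand, the core of the element that interferon-activated factors bind.
Slfn8 upstream, chr11:83020811-83020980, minus strand: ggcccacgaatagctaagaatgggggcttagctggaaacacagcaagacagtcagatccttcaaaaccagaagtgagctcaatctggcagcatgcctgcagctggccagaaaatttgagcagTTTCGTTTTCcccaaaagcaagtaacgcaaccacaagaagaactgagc
Slfn9 upstream, chr11:82991831-82992000, minus strand: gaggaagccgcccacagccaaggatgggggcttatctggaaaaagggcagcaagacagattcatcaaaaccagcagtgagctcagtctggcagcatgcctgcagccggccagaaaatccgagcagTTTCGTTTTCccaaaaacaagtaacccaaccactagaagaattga
Slfn5 upstream, chr11:82951932-82952101, plus strand: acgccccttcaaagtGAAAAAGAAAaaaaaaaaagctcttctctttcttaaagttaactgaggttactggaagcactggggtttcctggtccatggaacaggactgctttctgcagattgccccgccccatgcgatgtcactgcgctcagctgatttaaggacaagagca
Slfn2 upstream, chr11:83064942-83065111, plus strand: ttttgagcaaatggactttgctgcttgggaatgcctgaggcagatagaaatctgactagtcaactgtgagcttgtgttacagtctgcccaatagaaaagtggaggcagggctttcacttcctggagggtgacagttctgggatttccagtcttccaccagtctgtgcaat
The match ended 39 bases before the start in Slfn8, 36 bases before it in Slfn9 and 146 bases before it in Slfn5. Slfn8 has another RefSeq start further downstream, from which the match began at position -136, against -48 from the start used here. The same 10 letters, TTTCGTTTTC, stand in Slfn8 and Slfn9, and the 250 bases upstream of these genes matched at 206 of 242 aligned positions (85.1%). The RefSeq start of Slfn5 lies inside the GENCODE gene, downstream of its annotated 5′ end. All 7 members had at least 1 RefSeq window, of 250 bases before and 50 after a start site, and 3 of them held the letters. Slfn1, Slfn2 and Slfn3 held none, and Slfn4 held only the shorter spacing GAAANGAAA, as TTTCTTTTC. Of all 32851 RefSeq windows of this length, 3.44% held this element core and 6.27% held either spacing. Counted by gene, as for the members, 3.99% held the core in a window. Among 22 listed interferon-stimulated genes with a window, 13 held it. These matches are letters in a window and do not show that a factor is bound.

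Slfn8 (chr11:83002158-83020810, minus strand; 910 codons) is a long-class gene, the class of human SLFN11 and SLFN13. It had 1064 and 979 counts in the cKO libraries, against 46 in the control. These are 85.4 and 76.5 CPM in cKO (81.0 ± 6.3, SD, n = 2), against 3.71 CPM in the control. Both cKO libraries lay far above the control and close to each other, with a cKO 1 to cKO 2 ratio of 1.12 (95% counting interval 1.02 to 1.22). The fold over the control was 21.8 (95% counting interval 16.3 to 29.9), and 23.0 and 20.6 for the cKO libraries taken singly.

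Slfn9 (chr11:82978390-82991830, minus strand; 910 codons) is the near copy of Slfn8 next to it. It had 1276 and 1136 counts in the cKO libraries, against 284 in the control. Its level was 102 and 88.8 CPM in cKO (95.6 ± 9.7, SD, n = 2), against 22.9 CPM in the control. Slfn9 was thus the only member with more than 50 counts in the control library. Its fold was 4.17 (95% counting interval 3.69 to 4.74), below the interval of Slfn8, and the cKO libraries taken singly gave 4.48 and 3.88.

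The balance of these near copies differed between the cKO libraries and the single control library. By counts Slfn8 lay below Slfn9 in all 3 libraries, with ratios of 0.834 and 0.862 in cKO, against 0.162 in the control. Their exons add up to 4091 and 5965 bases. Per kilobase of exon, the Slfn8 level was 1.22 times the Slfn9 level in cKO replicate 1 (95% counting interval 1.12 to 1.32) and 1.26 times in cKO replicate 2 (1.15 to 1.37), against 0.236 times in the control (0.169 to 0.323). Their coding sequences match at 92.7% of 2730 aligned bases, so reads could have been divided between them. Of the 50-base words in their exons, 14.6% of those of Slfn8 and 11.2% of those of Slfn9 also occur in another Schlafen gene, most often Slfn10-ps, which holds 10.1% and 8.10% of them. At 100 bases the shares were 3.38% and 3.71%. The sources used here give neither the read length nor the handling of reads that match several genes. Taken as a pair, Slfn8 and Slfn9 had 2340 and 2115 counts in cKO, against 330 in the control, a fold of 6.63 (95% counting interval 5.93 to 7.44) into which any division of reads between these copies does not enter.

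Slfn5 (chr11:82951349-82964840, plus strand; 884 codons) is the long-class member at the end of the cluster, and its human counterpart works in the nucleus. It had 122 and 59 counts in the cKO libraries, against 0 in the control. The level was 9.80 and 4.61 CPM in cKO (7.20 ± 3.67, SD, n = 2), against 0 CPM in the control, where 3 counts, the limit that a count of 0 allows, would be 0.242 CPM. Set against that limit, the level of Slfn5 was 29.6-fold higher in cKO, and 40.5-fold and 19.1-fold higher in cKO replicates 1 and 2. These bounds leave out counting error in the cKO libraries, so the folds could lie lower. Of the members with a mean of at least 1 CPM, Slfn5 varied most between the cKO libraries. Its level in replicate 1 was 2.12 times that in replicate 2 (95% counting interval 1.54 to 2.95), 1.09 on the log2 scale. The antisense gene Slfn5os, which overlaps it, had 0 counts in all 3 libraries, and whether the counting used strand is not given in the sources used here.

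Slfn2 (chr11:83065112-83070678, plus strand; 378 codons) is the short-class member that keeps mouse T cells and monocytes quiescent and, in T cells, binds transfer RNA and shields it from cleavage. It had 417 and 429 counts in the cKO libraries, against 16 in the control. Its level was 33.5 CPM in each cKO library (33.5 ± 0.027, SD, n = 2), against 1.29 CPM in the control. The cKO libraries differed by less than counting error, with a ratio of 0.999 (95% counting interval 0.871 to 1.15). The fold was 26.0 (95% counting interval 15.9 to 45.7), an interval that overlaps that of Slfn8 and lies above that of Slfn9. Only 4.27% of its 50-base words occur in another Schlafen gene.

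Slfn1 (chr11:83116849-83122670, plus strand; 337 codons), which halts the growth of mouse thymocytes and lowers cyclin D1 when it is overexpressed, had 0 counts in all 3 libraries. Counts of 0 allow up to 0.241 and 0.234 CPM in the cKO libraries, against 0.242 CPM in the control. The short class was thus represented by Slfn2 alone.

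The intermediate class was near the limit of detection. Slfn3 (chr11:83191330-83215154, plus strand; 640 codons), which rises as gut epithelial cells of rodents differentiate, had 23 and 22 counts in the cKO libraries, against 10 in the control. Its level was 1.85 and 1.72 CPM in cKO (1.78 ± 0.090, SD, n = 2), against 0.806 CPM in the control, with a fold of 2.21 (95% counting interval 1.10 to 4.92). For cKO replicate 2 alone the counting interval, 0.969 to 5.04, reached below 1. Slfn4 (chr11:83175186-83190216, plus strand; 602 codons), known in mouse macrophages, had 0 and 1 counts in the cKO libraries, against 0 in the control. Their coding sequences match at 92.3% of 1785 aligned bases. As a pair they had 23 and 23 counts in cKO, against 10 in the control, a fold of 2.26 (95% counting interval 1.12 to 5.02).

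**Figure D2:**
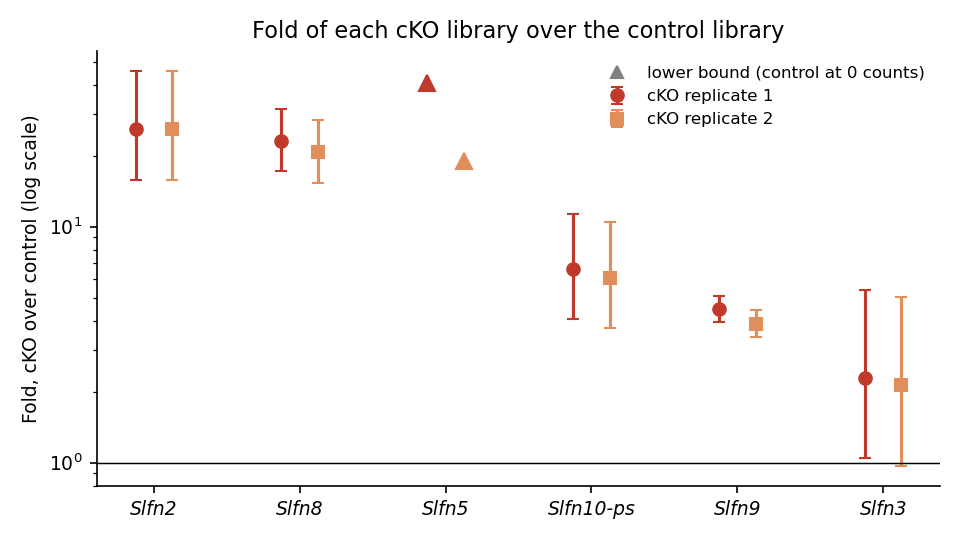
Fold of each cKO library over the control library (log scale), with 95% counting intervals, and triangles for lower bounds where the control had 0 counts. Slfn2 and Slfn8 lie near 26.0 and 21.8, Slfn9 near 4.17 and Slfn3 near 2.21, while the Slfn5 bounds are 40.5 and 19.1.

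Outside the member list, 4 further rows carry a Schlafen symbol. Slfn10-ps, a pseudogene between Slfn8 and Slfn2 (chr11:83028130-83040042, minus strand), had 126 and 119 counts in the cKO libraries, against 19 in the control. It rose by 2.66 ± 0.37 on the log2 scale (standard error; adjusted p = 4.33e-05, edgeR). The adjusted p was 0.327 without the low-count filter and 0.151 when 3 prior degrees of freedom were set. Of its 50-base words, 19.7% occur in another Schlafen gene, most often Slfn9, so its counts are not separate evidence. With Slfn10-ps added, the Slfn8 and Slfn9 group had 2466 and 2234 counts in cKO, against 349 in the control, a fold of 6.62 (95% counting interval 5.93 to 7.40). Slfn14, a long-class gene linked to inherited platelet disease in humans, and Slfn5os had 0 counts in all 3 libraries. Slfnl1, a family relative on chromosome 4, had 1 and 0 counts in cKO, against 0 in the control.

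The make-up of the family's counts differed between the cKO libraries and the single control library. Slfn9 held 44.0% and 43.3% of the member counts in the cKO libraries, against 79.8% in the control (exact 95% binomial interval 75.2% to 83.8%). Slfn8 held 36.7% and 37.3% in cKO, against 12.9% in the control (9.62% to 16.9%). Slfn2 held 14.4% and 16.3% in cKO, against 4.49% in the control (2.59% to 7.20%). The shares in the cKO libraries were close to each other and lay outside the control's intervals for these 3 genes. Such intervals cover counting error in 1 control library only, so the spread between controls is not known. The differences in share restate the folds given above. Slfn5 held 4.20% and 2.25% in cKO, against 0% in the control (upper limit 1.03%). After division by exon length, the share of Slfn9 was 28.5% and 27.1% in cKO, against 66.7% in the control. On that scale Slfn8 held 34.6% and 34.0% in cKO, against 15.7% in the control, and Slfn2 held 33.4% and 36.6% in cKO, against 13.5% in the control. Slfn9 thus led the control on both scales, and in cKO it led by counts but came after Slfn2 and Slfn8 per length.

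**Figure D3:**
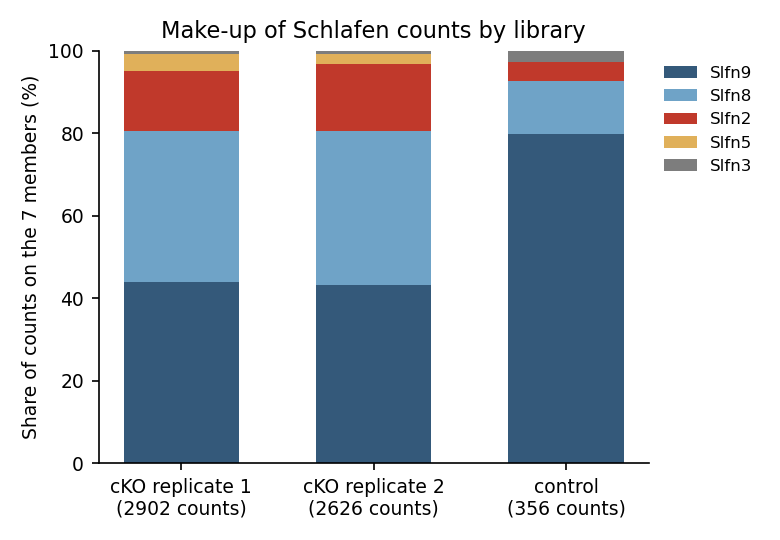
Share of the counts on the 7 members taken by each member in each library (%), with the number of member counts under each bar. Slfn9 takes 44.0% and 43.3% of the cKO counts, against 79.8% of the control counts.

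Levels can be set beside each other only per length of exon, as CPM per kilobase. On this scale Slfn2 had 20.1 in each cKO library, against 0.775 in the control. Slfn8 had 20.9 and 18.7 in cKO, against 0.906 in the control. Slfn9 had 17.2 and 14.9 in cKO, against 3.84 in the control. In the cKO libraries Slfn2 and Slfn8 were level within counting error, with Slfn2 to Slfn8 ratios of 0.964 (95% counting interval 0.858 to 1.08) and 1.08 (0.960 to 1.21), and both exceeded Slfn9. The Slfn2 to Slfn9 ratio was 1.17 (1.05 to 1.31) and 1.35 (1.21 to 1.51) in cKO, against 0.202 (0.114 to 0.334) in the control. Slfn5, at 1.55 and 0.729 in cKO against 0 in the control, and Slfn3, at 0.541 and 0.504 in cKO against 0.236 in the control, came below. The control order was Slfn9, then Slfn8 and Slfn2 (ratio of Slfn2 to Slfn8 0.855, 0.452 to 1.54), then Slfn3. Among 14150 tested genes matched to 1 annotated gene, Slfn2 lay above 84.2% and 83.5% in the cKO libraries and above 13.8% in the control. Slfn8 lay above 84.7% and 82.2% in cKO and above 15.6% in the control, and Slfn9 above 81.4% and 78.1% in cKO and above 43.2% in the control.

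The genes on both sides of the cluster were read as a local comparison. Of the 12 nearest tested genes, 6 on each side, 1 rose and 0 fell (edgeR), against 3.01% and 1.90% of all genes tested. The median log2 fold change of these 12 was 0.13. Nle1, a ribosome assembly gene 42.9 kb from Slfn5, had 15.1 and 12.3 CPM in cKO, against 12.6 CPM in the control. The gene that rose was Ccl5, a chemokine gene 239 kb beyond Slfn14, with 77 and 123 counts in cKO, against 2 in the control (ratio 49.1, 95% counting interval 13.4 to 408; adjusted p = 3.94e-06, edgeR). Ccl5 missed the threshold without the low-count filter and with 3 prior degrees of freedom. The other 4 rows inside the cluster had at most 8 counts in any library, and 0 of them were tested.

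**Figure D4:**
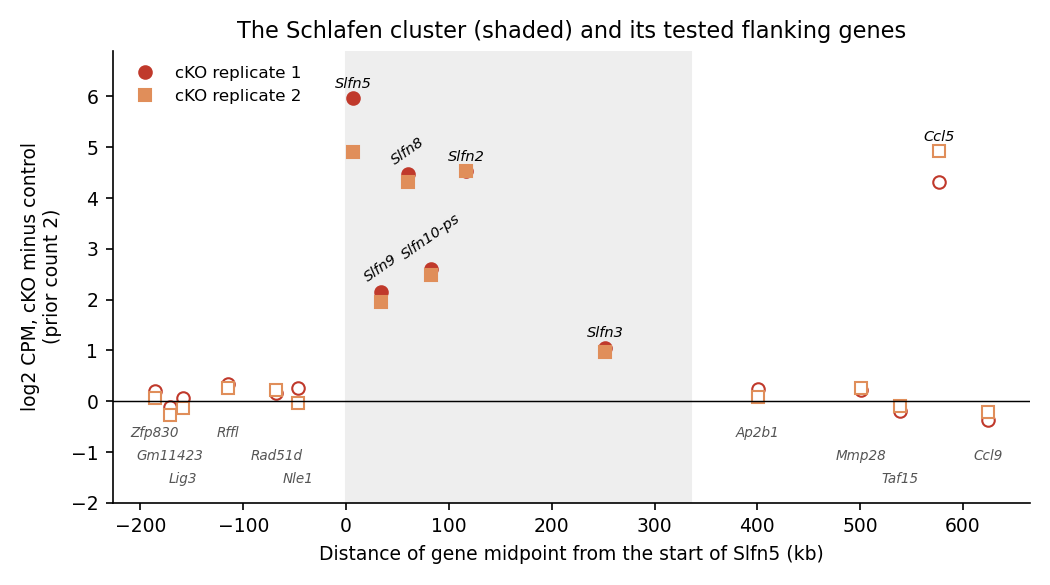
Difference in log2 CPM of each cKO library minus the control (prior count 2) against the distance of each tested gene from the start of Slfn5 (kb), with the cluster shaded and filled symbols for Schlafen genes. Ccl5 is the flanking gene that stands with the Schlafen genes, and the other flanking genes drawn lie near 0; 1 flanking gene is not drawn.

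Genes outside the family with the most similar pattern were found from the pair of log2 CPM differences, each cKO library minus the control, among 10226 genes in 3 libraries. The 3 nearest to Slfn2 were Cmpk2, a mitochondrial nucleotide kinase (distance 0.0906), Rtp4, a chaperone of receptor transport (0.123), and Ifi205, a DNA sensor family gene (0.170). For Slfn8 they were Ifi205 (0.0861), Cmpk2 (0.183) and Igtp, an immunity-related GTPase (0.189). For Slfn9 they were Apbb1ip, an adaptor of integrin activation (0.0672), H2-K1, a class I antigen-presenting molecule (0.0841), and Agrn, a basement membrane proteoglycan (0.0965). The genes nearest to Slfn2 and Slfn8 overlap, and those nearest to Slfn9 are different genes. This follows from the folds given above, because each pattern is only a pair of differences from the same control library. Slfn5 and Slfn3 had too low a mean level for this comparison.

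The members were then placed beside lists of genes from the same pathway. Of 32 interferon-stimulated genes outside the family, 32 rose, against 3.01% of all 15529 genes tested. Their median log2 fold change was 4.90, against -0.00 over all genes tested. This list and those below were written with earlier results of these data known, so how many genes rose or fell is a description. The summed level of the 32 genes was 5158 and 4969 CPM in cKO, against 322 CPM in the control. By fitted log2 fold change, Slfn2 (4.69) exceeded 14 of the 32 and Slfn8 (4.44) exceeded 10, while Slfn9 (2.06) and Slfn3 (1.14) were below all 32. Oasl2 and Ifit1 had log2 fold changes of 8.17 ± 0.25 and 5.94 ± 0.20 (standard error). Usp18, a brake on interferon signalling, had 176 and 196 CPM in cKO, against 2.42 CPM in the control, and Isg15, a ubiquitin-like modifier, had 303 and 271 CPM in cKO, against 3.71 CPM in the control. Without the low-count filter, 0 of the 32 passed, as did 0 of 24051 genes in all, with 1829 at an unadjusted p under 0.05.

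Of 19 tested receptors, kinases, transcription factors and feedback genes of interferon signalling, 5 rose and 0 fell (median 0.26). Over all genes tested, 3.01% rose and 1.90% fell. Among the 5 were Irf7 (log2 fold change 5.28 ± 0.19, standard error), Stat2 (3.17 ± 0.16), Irf9 (1.97 ± 0.15) and Irf1 (1.03 ± 0.21). The receptor genes Ifnar1 (-0.00) and Ifnar2 (-0.07) did not pass. None of 11 interferon ligand genes reached the filter: Ifnb1 had 1 and 1 counts in cKO, against 0 in the control, Ifna4 had 2 and 0 counts in cKO, against 0 in the control, and the other 9 had 0 counts throughout.

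Several Schlafen proteins act on RNA and translation. A list of 10 other restriction genes holds mostly genes that act on RNA or translation, along with some that act on DNA or nucleotides, such as Trex1, a DNA exonuclease, and Samhd1, a nucleotide hydrolase. Of these 10, 8 rose and 0 fell (median 1.33), against 3.01% and 1.90% of all genes tested. Eif2ak2, the double-stranded RNA kinase that halts translation, had a log2 fold change of 2.47 ± 0.16 (standard error). Adar, which edits double-stranded RNA, had 222 and 218 CPM in cKO, against 55.1 CPM in the control. Mov10, an RNA helicase, had a log2 fold change of 1.57 ± 0.15, and Zc3hav1, which binds viral RNA, one of 1.32 ± 0.14. Trex1 had a log2 fold change of 1.70 ± 0.28 and Samhd1 one of 0.77 ± 0.14. Slfn2 and Slfn8 lay above every gene of this list in fitted log2 fold change. Isg20 (0.10 ± 0.20) and Apobec3 (1.09 ± 0.36) did not pass.

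Of 8 genes for the cleavage, ligation or protection of transfer RNA, 0 rose and 0 fell (edgeR; 0 at an unadjusted p under 0.05; 0 in DESeq2 and limma-voom), with a median of -0.00 and a range of -0.41 to 0.29. Nsun2, whose methylation shields transfer RNA, had 113 and 124 CPM in cKO, against 109 CPM in the control, and Rnh1, the inhibitor of the nuclease angiogenin, had 206 and 196 CPM in cKO, against 186 CPM in the control. Of 16 cell cycle genes, 3 rose, 0 fell and 13 did not pass (median 0.11, range -0.32 to 1.00). Over all genes tested, 3.01% rose and 1.90% fell, the shares to set beside both lists. Ccnd1, which encodes cyclin D1, had 714 and 753 CPM in cKO, against 366 CPM in the control (log2 fold change 1.00 ± 0.15, standard error), and Rrm2 and Mcm5 had log2 fold changes of 0.53 ± 0.14 and 0.54 ± 0.14. With 3 prior degrees of freedom, 0 of these cell cycle genes and 2 of the 10 restriction genes were past the threshold.

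**Figure D5:**
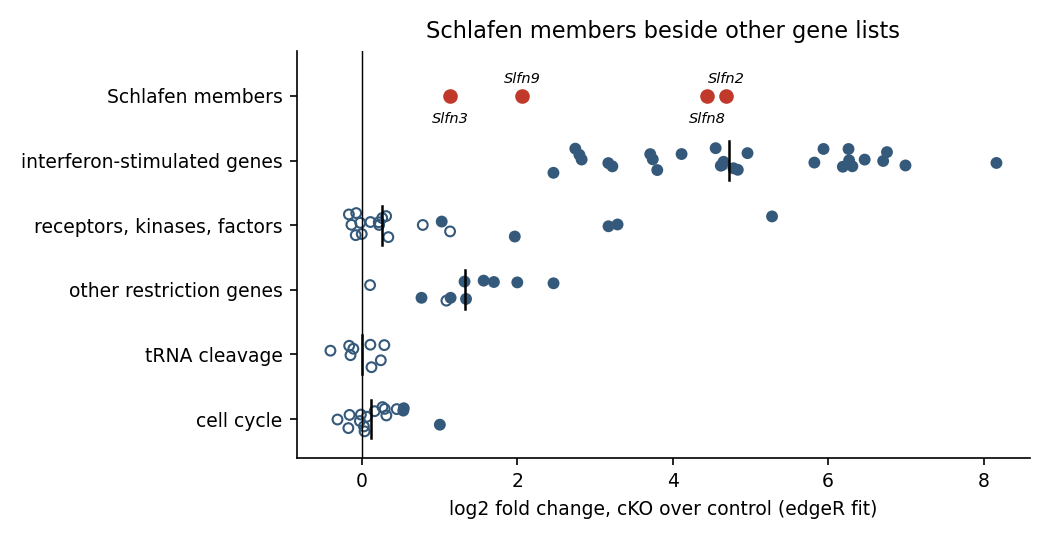
Log2 fold change, cKO over control, from the edgeR fit, for the Schlafen members and for listed genes with more than 3 control counts, with filled blue symbols for listed genes past the adjusted threshold, open blue symbols for the others, red symbols for members with no call shown, and a bar at each list's median. Slfn2 and Slfn8 lie within the interferon-stimulated genes drawn and Slfn9 and Slfn3 below all of them; Slfn5 is left out because its control count was 0.

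Markers of other cells were read beside the Schlafen values, since in bulk RNA fewer cells of a type and less RNA per cell cannot be told apart. Of 18 leukocyte markers 4 were tested and 0 passed (edgeR; 2 at an unadjusted p under 0.05), and 7 had 0 counts in all 3 libraries. Their summed level was 13.5 and 13.4 CPM in cKO, against 8.22 CPM in the control. Ptprc, which marks leukocytes, had 1 and 1 counts in cKO, against 0 in the control, and Itgam and Cd3e had 0. Csf1r, a macrophage receptor gene, had 33 and 28 counts in cKO, against 8 in the control. Of 7 endothelial markers 2 were tested and 0 passed, with summed levels of 3.05 and 3.13 CPM in cKO, against 1.77 CPM in the control, and Cdh5, Emcn and Tie1 at 0.

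The 10 listed cartilage genes, which define the labelled cell type, were detected in both groups at unequal levels. Their summed level was 15493 and 14512 CPM in cKO, against 26247 CPM in the control. Most of that sum was Col2a1, at 12527.3 and 11984.5 CPM in cKO, against 20115.8 CPM in the control. Matn3 had 9.55 and 7.19 CPM in cKO, against 20.8 CPM in the control. Of 10 chondrocyte markers 9 fell and 0 rose (median -1.25), against 1.90% and 3.01% of all genes tested. Col2a1 was the marker that did not pass. Matn1, a cartilage matrix protein gene, had 23.8 and 22.3 CPM in cKO, against 91.8 CPM in the control. Lect1, Col11a2 and Hapln1 had log2 fold changes of -1.51, -1.26 and -1.18. Of 7 fibroblast and synovium markers 3 rose and 0 fell (edgeR), against 3.01% and 1.90% of all genes tested. Thy1 had 623 and 259 counts in cKO, against 139 in the control. Cd44 had 369 and 389 CPM in cKO, against 188 CPM in the control, and Prg4 had 232 and 169 CPM in cKO, against 135 CPM in the control. In DESeq2, Thy1 and Prg4 missed the threshold. The other 4 markers did not pass, with log2 fold changes of 0.33 (Pdgfra), 0.04 (Col1a1), -0.28 (Col3a1) and -0.28 (Postn). The summed level of that list was 13394 and 11992 CPM in cKO, against 13169 CPM in the control. With 3 prior degrees of freedom 1 chondrocyte marker fell and 0 fibroblast markers rose. The part of these shifts in the Schlafen values was not tested.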

How the data were processed

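Whole-number read counts per gene symbol, deposited by the authors in 1 table with 1 column per library, were used as they stand. The sources used here name no aligner, counter, annotation or strand setting. The submitters' processing notes name GRCm38 and GRCh37 with no role. No per-library column was left unused (0). The members and gene lists were chosen with earlier results of these data known.

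Counts were fitted in edgeR 4.0.16 (R 4.3.3) with TMM normalisation, filterByExpr, its quasi-likelihood test and adjustment by Benjamini-Hochberg at 0.05, over 15529 of 44788 genes. The fit has 1 residual degree of freedom, so the single control is taken to vary as the cKO libraries do. The prior degrees of freedom were 19.9. The cKO columns differed beyond counting noise (chi-square of 9.82 per gene over 14813 genes). No label states how many cultures or animals were used, though sex-linked counts differ between the cKO libraries. A p-value here reflects the spread of this 1 pair of libraries. Standard errors come from the F statistic.

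Counting intervals are exact (Clopper-Pearson, 95%). Folds are ratios of counts scaled by effective library size, and the floor is 3 counts. Exon lengths, coding identity and shared words of 50 and 100 bases come from GENCODE M21, where 30936 symbols matched 1 gene. Promoter windows come from RefSeq. Named genes were the members, Kdm6b, every other Slfn row, the 3 nearest genes by pattern at a mean of at least 5 CPM (prior count 2), flanking genes past the threshold, and of each list the 4 genes with the smallest p past the threshold, with marker lists by their defining genes. Nle1, Irf1, Trex1, Samhd1, Nsun2, Rnh1, Isg20, Apobec3, Ifnar1, Ifnar2, Ifnb1 and Ifna4 were named after their values were seen. Values of some listed genes are not reported here. Alternatives were RLE normalisation, no low-count filter, DESeq2 1.42.0, limma-voom 3.58.1, each cKO library left out, a mean of 1 CPM and, added later, prior degrees of freedom set to 3.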

Additional observations from a re-analysis of the deposited data

How the results depend on the processing

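The fit has 1 residual degree of freedom, so its counts of calls follow the prior variance. Of all genes tested, 467 rose and 295 fell. Without the low-count filter 0 rose and 0 fell among 24051 genes (1829 at an unadjusted p under 0.05), and every list count was 0 as well: interferon-stimulated genes, signalling genes, restriction genes, cell cycle genes, chondrocyte markers, fibroblast markers and flanking genes. The prior degrees of freedom were then 2.03. DESeq2 gave 226 and 84, with 1 cell cycle gene and 1 fibroblast marker higher. With prior degrees of freedom set to 3, an alternative chosen after seeing the data, 83 rose and 4 fell; 2 restriction genes, 0 cell cycle genes, 0 fibroblast markers and 0 flanking genes were higher, and 1 chondrocyte marker was lower. RLE normalisation gave 399 and 230, and limma-voom 465 and 361. At a minimum mean of 1 CPM, 301 genes were at least 2-fold higher in each cKO library and 103 lower, in place of 182 and 56. The median log2 fold change of the 5 filtered members, with Slfn5 at its bound, was 4.44, and 4.25 to 4.47 with either cKO library left out. DESeq2 and limma-voom also called 0 leukocyte and 0 endothelial markers. No result reversed. Kdm6b passed under none of the alternatives run. No paired analysis was possible because the control has 1 library, whose number comes from accession order. Leaving out a cKO library leaves 0 residual degrees of freedom, so those values carry no test. With a single control, the interval of every fold covers counting error only, and variation between controls is not known.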
